A study of Mus musculus with 8 samples.

Results

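The 10 genes described here are components of fibroblast growth factor (FGF) signalling: 4 receptors (Fgfr1 to Fgfr4), the coreceptor gene Klb, and the ligand genes Fgf1, Fgf2, Fgf7, Fgf9 and Fgf10. They were found as every probe whose gene name in the array files is one of these symbols, which gave 17 of 39429 probes, and 16 of the 17 passed the filter on dim probes described below. The arrays, 1-colour Agilent arrays hybridised with Cy3-labelled RNA, were of small intestine from female BALB/cA Jcl mice aged 8 weeks. There were 4 groups of 2 arrays each. In the FGF1 group the mice received FGF1 by intraperitoneal injection, then 8 Gy of carbon ions, the heavy particles of some radiotherapy beams. In the FGF1/CPP-C group they received FGF1/CPP-C, an FGF1 protein carrying an added peptide, and the same 8 Gy. In the 8 Gy saline group saline took the place of the protein, and in the 0 Gy saline group saline was given with no dose. The design text gives 12 h of pretreatment, and tissue was taken 4 h after irradiation. No group shows FGF1 without irradiation. The segment is jejunum according to the design text and small intestine according to the labels. The arrays measure mouse mRNA, not the injected protein, so the Fgf1 probes report the animals' own Fgf1 transcripts.

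FGF receptors are tyrosine kinases of the cell surface. A ligand binds them together with heparan sulfate, a sugar chain on cell-surface proteins, and the activated receptor passes the signal through the adaptor FRS2 to the RAS, RAF, MEK and ERK kinases. FGF1 is known for binding all 4 receptors. FGF7 and FGF10 come from the mesenchyme and act on epithelial cells through a splice form of FGFR2, FGF9 is passed between epithelium and mesenchyme, and FGF2 is a broadly acting mitogen. KLB (beta-klotho) is the coreceptor through which the endocrine ligands FGF15 and FGF21 reach their receptors, in the liver FGFR4 for FGF15. In the mouse intestine FGFR3 is known for its role in the crypts, where stem cells and Paneth cells lie.

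An array value belongs to the 60 bases of its probe, so the probes are shown where their sequence bears on what follows. The Fgfr2 pair overlap, and the capitals below mark the 42 bases that the probe used for Fgfr2 (chr7:137307473-137307532, minus strand, build mm9 as given in the array files) shares with the other Fgfr2 probe, which begins 18 bases further along the transcript. These 2 probes read nearly the same stretch, which ends in the stop triplet TGA, and are not independent measurements.
Fgfr2 probe A_55_P2094881: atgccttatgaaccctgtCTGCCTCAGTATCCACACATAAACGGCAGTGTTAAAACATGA
Probes of related receptors share part of their sequence. In the next pair, from Fgfr1 (chr8:26684061-26684120, plus strand, mm9) and Fgfr4 (chr13:55269212-55269271, plus strand, mm9), the capitals mark the bases that are identical at the aligned position. They number 35 of 58, and the longest identical run is 9 bases.
Fgfr1 probe A_55_P1967022: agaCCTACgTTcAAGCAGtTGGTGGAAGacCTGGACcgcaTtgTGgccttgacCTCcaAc
Fgfr4 probe A_55_P2121871: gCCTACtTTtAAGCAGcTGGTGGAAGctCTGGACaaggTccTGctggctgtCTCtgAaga
These are dimmer probes of their genes, and the brighter probes used for the gene values lie elsewhere, at chr8:26685072-26685131 for Fgfr1 and at chr13:55270033-55270092 for Fgfr4. The next probe is labelled Fgfr3, yet the array files place it at chr1:183022230-183022289, while RefSeq has Fgfr3 on chromosome 5. It was not used for the Fgfr3 gene value, which came from a probe at chr5:34079649-34079708.
Fgfr3 probe A_65_P06147: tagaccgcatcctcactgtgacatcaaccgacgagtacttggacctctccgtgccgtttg
The last is the Fgf2 probe behind every Fgf2 value below, which the array files place nowhere on mm9. RefSeq has Fgf2 on chromosome 3.
Fgf2 probe A_51_P399845: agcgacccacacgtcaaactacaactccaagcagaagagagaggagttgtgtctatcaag

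The other gene values came from probes at chr18:38998337-38998396 (Fgf1), chr2:125916134-125916193 (Fgf7), chr14:58728897-58728956 (Fgf9), chr13:119580365-119580424 (Fgf10) and chr5:65774926-65774985 (Klb), all on mm9.

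The 75th percentile of the processed signal lay between 1735 and 2165 intensity units over the 8 arrays, 68.2% to 72.5% of the spots were well above background, and r across genes was 0.982 to 0.994 between the arrays within a group. The label small intestine held, with all 14 enterocyte markers well above background on every array. Other tissue differed between arrays. A list of 15 stomach antrum genes, drawn up with earlier results of these data known, had a median log2 value of 1.92 (FGF1 replicate 1), 2.06 (8 Gy saline replicate 2) and 1.77 (0 Gy saline replicate 1), of -1.57, -1.70 and -0.41 in the other arrays of those groups, and of -4.59 and -5.64 in the FGF1/CPP-C arrays. Tff2, a trefoil peptide of antrum and of the Brunner glands of the upper duodenum, had -6.02 and -6.74 in the FGF1/CPP-C arrays, neither well above background, against 8.15 to 8.99 in the other 6. The summed antrum signal, relative to the 75th percentile, was 1035, 1214 and 1160 in those 3 arrays of high antrum median, 446, 442 and 820 in their partners and 8.20 and 7.52 in FGF1/CPP-C. Cldn18, a stomach claudin, was well above background on those 3 arrays only, and Sox2 on none. Pancreatic acinar transcripts were high in 8 Gy saline replicate 2 and 0 Gy saline replicate 1, with medians of 2.85 and 5.24 over 15 genes, against -1.94 or lower elsewhere. The median of 10 adipocyte markers was -4.33 and -3.76 in FGF1, -4.25 and -3.92 in FGF1/CPP-C, -1.25 and -2.01 in 8 Gy saline and -2.75 and -3.14 in 0 Gy saline. Adipoq had -6.74 on each FGF1 and FGF1/CPP-C array, against -3.07 and -3.89 in 8 Gy saline. Fabp4 was no lower in FGF1 (1.95 and 2.06) than in 8 Gy saline (1.95 and 1.93). Whether each array stands for its own animal is not in the labels, so a p-value here reflects array-to-array spread, possibly technical alone. In bulk tissue, fewer cells of a type and less RNA per cell cannot be told apart.

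Gene values below are the log2 of the processed signal over the array's 75th percentile, for the gene's brightest probe, and differences are log2 fold changes ± the standard error of a limma fit to all 8 arrays. Adjusted p-values are limma's, over all genes, with 0.05 as the threshold. Values of different genes come from different probes and cannot be ranked against each other. With 2 arrays against 2, an exact permutation test of a single gene cannot go below p = 0.333.

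The first comparison, FGF1 against saline in irradiated tissue, addresses whether the transcripts of the FGF system differed after the ligand was injected. None of the 4 receptors, the coreceptor or the 5 ligands differed between the groups beyond the spread between arrays. The receptor genes stayed close to their level in saline, and the 2 slides gave differences of opposite sign for all 4.

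Fgfr1, the receptor most typical of mesenchymal cells, had 0.04 and 0.16 in the FGF1 arrays, against 0.04 and 0.38 in the 8 Gy saline arrays. The FGF1 values fell inside the range of the saline pair. Fgfr2, whose epithelial splice form receives FGF7 and FGF10, had -2.17 and -2.14 in the FGF1 arrays, against -2.21 and -2.07 in the 8 Gy saline arrays. It was the steadiest of the 10 genes, with its lowest and highest array only 1.21-fold apart. Fgfr3, which acts in crypts, had 0.57 and 0.53 in the FGF1 arrays, against 0.76 and 0.36 in the 8 Gy saline arrays. Fgfr4, the usual partner of KLB in liver, had -1.03 and -1.14 in the FGF1 arrays, against -1.22 and -0.90 in the 8 Gy saline arrays. For all 4 receptors the FGF1 pair lay within the saline pair. The log2 fold changes were -0.11 ± 0.15, -0.02 ± 0.09, -0.01 ± 0.15 and -0.03 ± 0.15 for Fgfr1 to Fgfr4 in order, each with an adjusted p of 1. The 95% intervals of the fit ran from -0.47 to 0.25 for Fgfr1 and from -0.24 to 0.21 for Fgfr2. They ran from -0.37 to 0.35 for Fgfr3 and from -0.39 to 0.33 for Fgfr4. With 2 arrays per group, changes inside these bounds are not excluded. The bounds are not a detection limit, since passing also required an adjusted p under 0.05.

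Klb, the beta-klotho coreceptor, had -2.81 and -5.01 in the FGF1 arrays, against -3.75 and -2.58 in the 8 Gy saline arrays. One FGF1 array lay between the saline arrays and the other below both, and the difference was 0.94 on slide 1 and -2.43 on slide 2. The fold change of -0.74 ± 0.80 (adjusted p = 1) therefore has no settled direction. The adipocyte median given above was lower in both FGF1 arrays than in both 8 Gy saline arrays, and its part in the Klb values was not tested.

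Among the ligands, the animals' own Fgf1 had 0.04 and 0.14 in the FGF1 arrays, against -0.11 and 0.13 in the 8 Gy saline arrays. Its fold change was 0.08 ± 0.12, with a 95% interval of -0.22 to 0.39. Fgf2 had -5.04 and -4.89 in the FGF1 arrays, against -4.89 and -5.08 in the 8 Gy saline arrays. Fgf7, the keratinocyte growth factor of the mesenchyme, had -2.97 and -2.67 in the FGF1 arrays, against -2.87 and -2.58 in the 8 Gy saline arrays. The groups overlapped for each of these 3 ligands. Fgf9 had -0.13 and -0.07 in the FGF1 arrays, against -0.11 and -0.60 in the 8 Gy saline arrays, a fold change of 0.25 ± 0.18 that rested on the single low saline array of slide 2. Fgf10, the mesenchymal ligand of the epithelial FGFR2, had -4.39 and -5.03 in the FGF1 arrays, against -5.35 and -3.18 in the 8 Gy saline arrays, and the saline pair again enclosed the FGF1 pair. All 5 ligands had an adjusted p of 1.

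Of the 10 genes, 0 passed in this comparison, where 0% of 21780 genes passed, and 0 had an unadjusted p under 0.05, where 1.74% of all genes did. No gene of the 10 had groups that did not overlap, against 18.9% of all genes. The median fold change was -0.02 over the 10 genes and 0.01 over all genes.

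**Figure D1:**
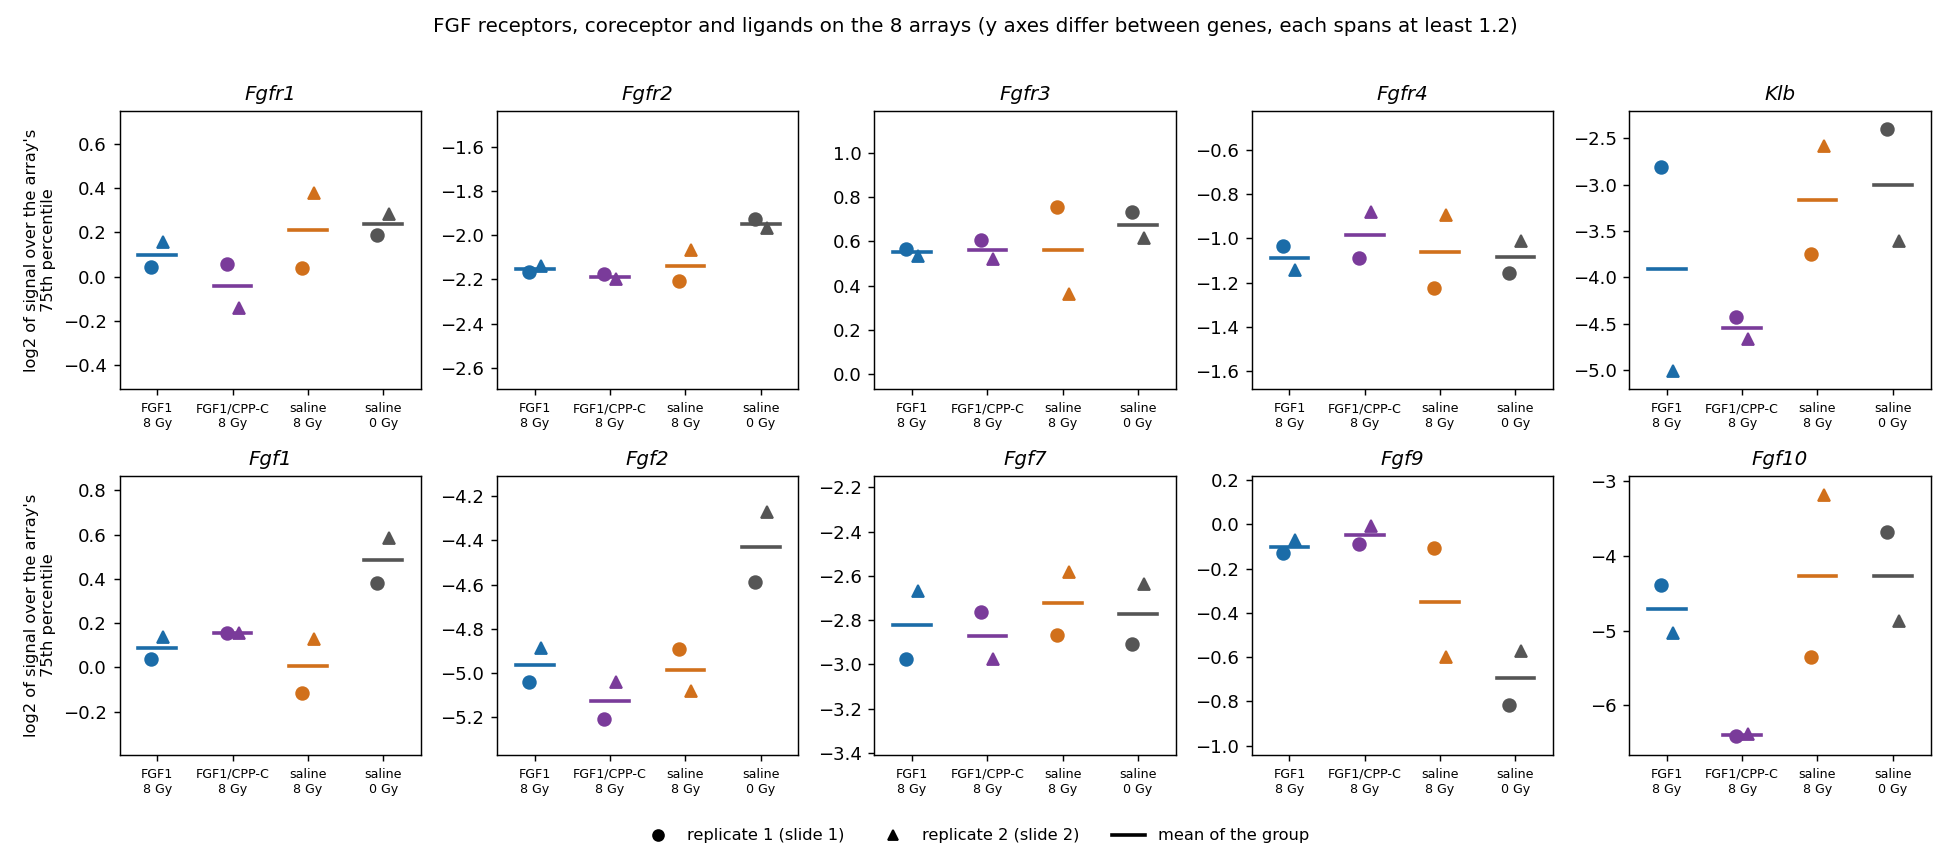
The log2 of the signal over the array's 75th percentile (y axes, which differ between genes) is plotted for each of the 10 genes in the FGF1, FGF1/CPP-C, 8 Gy saline and 0 Gy saline groups, with circles for replicate 1 on slide 1, triangles for replicate 2 on slide 2 and a line at the group mean. The receptors lie close together in all groups, Fgf1 and Fgf2 are highest in both 0 Gy saline arrays, and Klb and Fgf10 span 6.07-fold and 9.36-fold between their lowest and highest arrays.

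In FGF1/CPP-C against saline, both at 8 Gy, and in FGF1/CPP-C against FGF1, the clearest difference was at Fgf10, which was not well above background in either FGF1/CPP-C array. The receptors and the other ligands again differed little. FGF1/CPP-C and FGF1 form the only pair of related proteins in the series, compared at the same 8 Gy and the same 4 h, and no other pair was compared. The labels give no amount of either protein.

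The Fgf10 probe was spotted 10 times on each array. In the FGF1/CPP-C arrays 0 and 1 of the 10 spots were well above background, against 10 and 10 in the FGF1 arrays, 9 and 10 in the 8 Gy saline arrays and 10 and 10 in the 0 Gy saline arrays. The normalised values were -6.41 and -6.38 in the FGF1/CPP-C arrays, against -4.39 and -5.03 in the FGF1 arrays, -5.35 and -3.18 in the 8 Gy saline arrays and -3.68 and -4.87 in the 0 Gy saline arrays. Both FGF1/CPP-C arrays thus lay below all 6 others. As a bound, set from the dim group's own signal or the lowest signal well above background, whichever was higher, Fgf10 was at least 4.38-fold lower in FGF1/CPP-C than in 8 Gy saline (adjusted p = 0.382), at least 3.21-fold lower than in FGF1 (adjusted p = 0.580) and at least 4.35-fold lower than in 0 Gy saline (adjusted p = 0.177). None of the 3 differences passed, and the arrays within each of the other groups were themselves far apart. The bounds hold only for the processed signal of all 8 arrays. After normexp, another background correction, the Fgf10 fold changes were -0.94 against 8 Gy saline, -0.64 against FGF1 and -0.83 against 0 Gy saline. The FGF1/CPP-C arrays are also those in which Tff2 was not well above background and the antrum medians given above were lowest, so the protein given and the tissue in the sample cannot be told apart here. Pdx1 and Sst, also of the antrum list, did not set these arrays apart. Without the 3 arrays with high antrum transcripts, left out once their values were known, the Fgf10 fold change was -1.05 against 8 Gy saline (adjusted p = 0.674) and -1.36 against FGF1 (adjusted p = 0.524).

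Klb had -4.43 and -4.67 in the FGF1/CPP-C arrays, against -2.81 and -5.01 in the FGF1 arrays and -3.75 and -2.58 in the 8 Gy saline arrays. The FGF1/CPP-C arrays were below both 8 Gy saline arrays, with differences of -0.68 on slide 1 and -2.09 on slide 2, but lay between the FGF1 arrays. The fold change was -1.39 ± 0.80 against 8 Gy saline (adjusted p = 0.495) and -0.64 ± 0.80 against FGF1 (adjusted p = 0.881).

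The receptors were near their level in both other irradiated groups. Fgfr1 had 0.06 and -0.14 in the FGF1/CPP-C arrays, Fgfr2 had -2.18 and -2.20, Fgfr3 had 0.60 and 0.52, and Fgfr4 had -1.09 and -0.88. Against 8 Gy saline their fold changes ran from -0.25 (Fgfr1) to 0.08 (Fgfr4), and against FGF1 from -0.14 (Fgfr1) to 0.11 (Fgfr4). The 95% intervals of the difference between the 2 proteins were -0.50 to 0.21 for Fgfr1, -0.26 to 0.19 for Fgfr2, -0.34 to 0.37 for Fgfr3 and -0.26 to 0.47 for Fgfr4, which leaves room for changes of that size in either direction. Among the ligands, Fgf1 had 0.15 and 0.16 in the FGF1/CPP-C arrays, Fgf2 had -5.21 and -5.04, Fgf7 had -2.76 and -2.98, and Fgf9 had -0.09 and -0.01. Their differences from FGF1 were between -0.16 (Fgf2) and 0.07 (Fgf1), and those from 8 Gy saline between -0.15 (Fgf7) and 0.31 (Fgf9).

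Against 8 Gy saline 0 of the 10 genes passed, where 0.00918% of all genes did, and 1, Fgf10, had an unadjusted p under 0.05, where 11.9% of all genes did. Groups did not overlap for 4 of the 10, where they did not overlap for 44.4% of all genes, with Fgf1 and Fgf9 higher and Fgf10 and Klb lower in FGF1/CPP-C. Against FGF1 0 of the 10 passed, where 0.00917% of all genes did, 0 had an unadjusted p under 0.05, where 9.01% of all genes did, and 4 of the 10 did not overlap, where 45.5% of all genes did not. The shares of the 10 genes were thus near those of all genes.

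**Figure D2:**
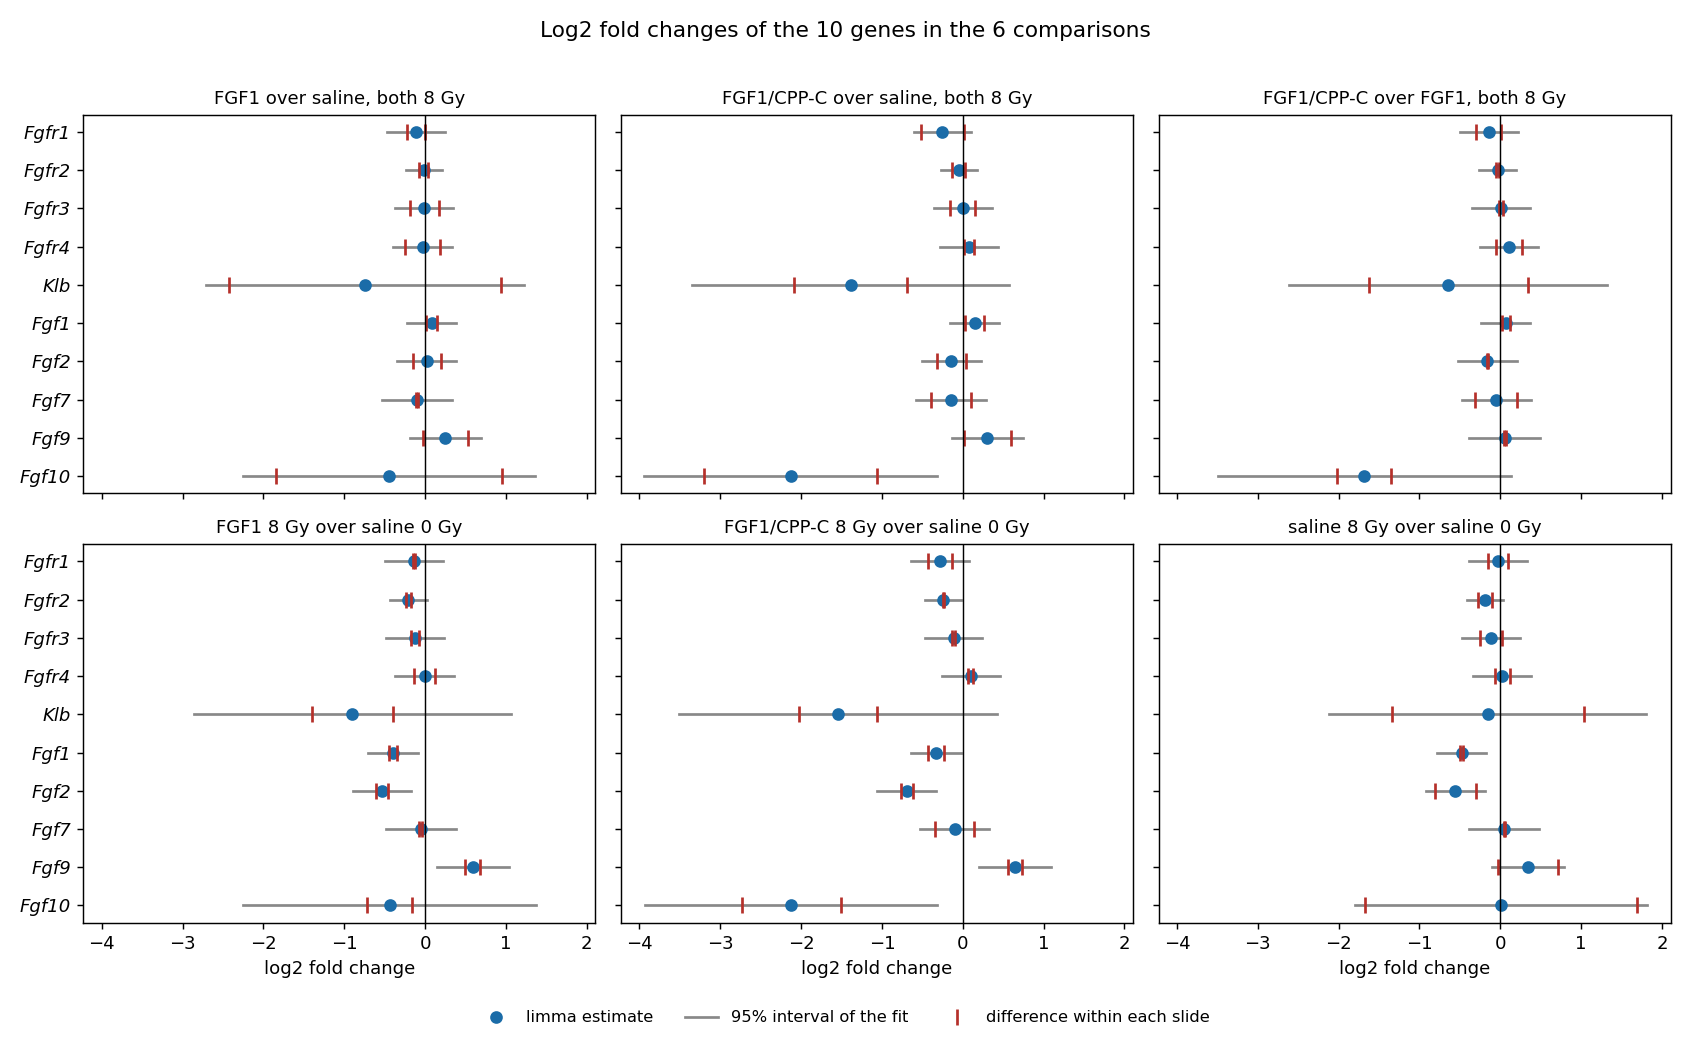
Log2 fold changes (x axis) of the 10 genes (rows) in the 6 comparisons are shown as points with the 95% interval of the fit as lines, and the difference between the 2 arrays of each slide as red ticks. The intervals of Klb and Fgf10 are several times wider than those of the other 8 genes, and Fgf1, Fgf2 and Fgf9 stand off 0 in comparisons with 0 Gy saline. The receptors lie closer to 0. In FGF1/CPP-C against 0 Gy saline Fgfr1 is at -0.28 and Fgfr2 at -0.24, and the Fgfr2 interval (-0.46 to -0.02) excludes 0.

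Against 0 Gy saline, the transcripts of the ligands Fgf1 and Fgf2 were lower in each of the 3 irradiated groups and Fgf9 was higher, by less than 2-fold each. No difference passed the threshold. The 3 comparisons share the same 2 arrays of 0 Gy saline, so they are not independent of each other, and the values are given side by side.

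Fgf1 had 0.04 and 0.14 in the FGF1 arrays, 0.15 and 0.16 in the FGF1/CPP-C arrays and -0.11 and 0.13 in the 8 Gy saline arrays, against 0.38 and 0.58 in the 0 Gy saline arrays. All 6 irradiated arrays lay below both unirradiated ones. The fold change was -0.40 ± 0.12 in FGF1 (adjusted p = 0.203), -0.33 ± 0.12 in FGF1/CPP-C (adjusted p = 0.202) and -0.48 ± 0.12 in 8 Gy saline (adjusted p = 0.224), which is 1.26-fold to 1.39-fold lower. The second Fgf1 probe, at chr18:39018274-39018333, had -5.10 and -4.81 in the FGF1 arrays, -4.95 and -4.93 in the FGF1/CPP-C arrays and -4.96 and -5.07 in the 8 Gy saline arrays, against -4.31 and -3.78 in the 0 Gy saline arrays. It separated the same arrays, with fold changes of -0.91 ± 0.19, -0.90 ± 0.19 and -0.97 ± 0.19 in the same order of groups (adjusted p = 0.104, 0.0766 and 0.140 in a fit over all probes).

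Fgf2 had -5.04 and -4.89 in the FGF1 arrays, -5.21 and -5.04 in the FGF1/CPP-C arrays and -4.89 and -5.08 in the 8 Gy saline arrays, against -4.59 and -4.27 in the 0 Gy saline arrays. It too was lower on all 6 irradiated arrays. The fold change was -0.53 ± 0.15 in FGF1 (adjusted p = 0.163), -0.69 ± 0.15 in FGF1/CPP-C (adjusted p = 0.0771) and -0.56 ± 0.15 in 8 Gy saline (adjusted p = 0.229). The Fgf2 signals were dim, with 52.1 intensity units on the lowest array, and after normexp background correction the fold changes were -0.21, -0.27 and -0.21 in the same order of groups. A second Fgf2 probe was not well above background on any array.

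Fgf9 had -0.13 and -0.07 in the FGF1 arrays, -0.09 and -0.01 in the FGF1/CPP-C arrays and -0.11 and -0.60 in the 8 Gy saline arrays, against -0.82 and -0.57 in the 0 Gy saline arrays. Of the irradiated arrays only 8 Gy saline replicate 2, an array with high antrum and acinar transcripts, was within the unirradiated range, and the part of that tissue in its value was not tested. The fold change was 0.59 ± 0.18 in FGF1 (adjusted p = 0.193), 0.65 ± 0.18 in FGF1/CPP-C (adjusted p = 0.124) and 0.34 ± 0.18 in 8 Gy saline (adjusted p = 0.525).

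Of the receptors, Fgfr2 was lower on all 6 irradiated arrays, with -2.21 to -2.07 there against -1.93 and -1.97 in the 0 Gy saline arrays. The difference was small, -0.21 ± 0.09 in FGF1, -0.24 ± 0.09 in FGF1/CPP-C and -0.19 ± 0.09 in 8 Gy saline (adjusted p = 0.335, 0.205 and 0.481). The 0 Gy saline arrays had 0.19 and 0.28 for Fgfr1, 0.73 and 0.61 for Fgfr3 and -1.16 and -1.01 for Fgfr4. For these 3 receptors the unirradiated values lay within the range of the 6 irradiated arrays. Fgf7, with -2.91 and -2.63 in the 0 Gy saline arrays, did so too. Klb had -2.40 and -3.61 in the 0 Gy saline arrays, and its fold changes were -0.90 ± 0.80 in FGF1, -1.54 ± 0.80 in FGF1/CPP-C and -0.16 ± 0.80 in 8 Gy saline.

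Fgf1, Fgf2 and Fgfr2 were thus the 3 of 10 genes lower on all 6 irradiated arrays than on both 0 Gy saline arrays, where 12.3% of all genes were, and 0 of 10 were higher on all 6, where 10.5% of all genes were. This count was made after the values were seen. The summed signal of 8 endothelial markers moved the same way, with a sum relative to the 75th percentile of 6.97 and 7.89 in FGF1, 7.48 and 6.90 in FGF1/CPP-C and 7.28 and 7.30 in 8 Gy saline, against 8.56 and 9.61 in 0 Gy saline. The brightest of these markers, the VEGF receptor gene Kdr, had 2.13 to 2.35 on the irradiated arrays, against 2.54 and 2.77. Tek and Emcn were also lower on all 6, while Pecam1, Cdh5, Vwf, Eng and Esam overlapped. The median of the 8 did not separate the arrays (-1.47 to -1.17 against -1.29 and -1.28). Over the arrays, the Pearson r of the smooth muscle median with Fgf1, Fgf2 and Fgfr2 was 0.69, 0.64 and 0.87. For the endothelial median it was 0.36, 0.34 and 0.48. Spearman rank correlations did not keep that order. They were 0.33, 0.52 and 0.76 for smooth muscle and 0.33, 0.62 and 0.81 for endothelium. The part of endothelial or smooth muscle cells in the Fgf1, Fgf2 and Fgfr2 values was not tested. Without the 3 arrays of high antrum median, the fold changes in FGF1, FGF1/CPP-C and 8 Gy saline against 0 Gy saline were -0.45, -0.43 and -0.70 for Fgf1, -0.61, -0.85 and -0.62 for Fgf2, 0.50, 0.52 and 0.47 for Fgf9 and -0.17, -0.22 and -0.24 for Fgfr2. The signs of Fgf1, Fgf2, Fgf9 and Fgfr2 in the 3 comparisons were the same under each of the 19 alternative settings, several of which cannot alter a fold change. Among the 10 genes 0 passed in FGF1 (0.9% of all genes), 0 in FGF1/CPP-C (2% of all genes) and 0 in 8 Gy saline (0.423% of all genes). Unadjusted p-values under 0.05 numbered 3 in FGF1 (16.7% of all genes), 5 in FGF1/CPP-C (22.1%) and 2 in 8 Gy saline (12.3%). Groups did not overlap for 6, 8 and 3 of the 10 genes in the same order, where they did not overlap for 51.3%, 60% and 38.5% of all genes.

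Klb and Fgf10 varied most between arrays of the same group. Their pooled standard deviations within groups were 0.98 and 0.90, against 0.05 to 0.20 for the other 8 genes. The FGF1/CPP-C pair was closer, with standard deviations of 0.17 and 0.02. Over all 8 arrays, across groups, Klb and Fgf10 spanned 6.07-fold and 9.36-fold, wider than 98.1% and 98.9% of all genes. The other 8 genes spanned 1.21-fold to 1.91-fold. In each of the FGF1, 8 Gy saline and 0 Gy saline groups, the array with the higher Fgf10 and the higher Klb was the array with the high antrum median. Fgf10 had -4.39, -3.18 and -3.68 in those arrays (FGF1 replicate 1, 8 Gy saline replicate 2 and 0 Gy saline replicate 1) and -5.03, -5.35 and -4.87 in their partners. Klb had -2.81, -2.58 and -2.40 in the same arrays and -5.01, -3.75 and -3.61 in their partners. The enterocyte median ran the other way, with 6.28, 5.98 and 6.20 in the arrays of high antrum median, 6.53, 6.58 and 6.55 in their partners, and 6.90 and 6.81 in the FGF1/CPP-C arrays. The fibroblast median, for the cells known to make Fgf10, was 0.88, 1.32 and 1.22 in the arrays of high antrum median, 0.89, 0.99 and 0.94 in their partners and 0.65 and 0.89 in the FGF1/CPP-C arrays. The median of 9 crypt stem cell markers was 0.23, 0.66 and 0.34 in the arrays of high antrum median, -0.74, -0.54 and 0.00 in their partners and -0.92 and -0.89 in the FGF1/CPP-C arrays. This median was highest where Fgf10 was high and lowest where Fgf10 was lowest, but the markers did not all follow it. Lgr5 was highest in the FGF1/CPP-C arrays, at -2.67 and -2.71, against -3.66 to -3.01 elsewhere. Axin2, Rnf43 and Znrf3 did not order the arrays as the median did. The log2 sums of fibroblast and smooth muscle markers, which weigh the brightest markers most, were lowest in the FGF1/CPP-C arrays. They were 4.92 and 4.99 for fibroblasts, against 5.12 to 5.82 elsewhere, and 6.53 and 6.43 for smooth muscle, against 6.76 to 7.34 elsewhere. The medians did not separate these arrays, with 2.86 and 2.83 for smooth muscle, against 2.85 to 3.40 elsewhere. Of the fibroblast markers, Pdgfra, Pdgfrb, Thy1 and Fbln1 were not lowest in FGF1/CPP-C. The part of other tissue or of these cell types in the Fgf10 and Klb values was not tested. Without the 3 arrays of high antrum median, the Klb fold change was -1.26 in FGF1 and -0.80 in FGF1/CPP-C against 8 Gy saline (adjusted p = 0.949 and 0.712), with 1 array each in FGF1 and in both saline groups, assumed to vary like the FGF1/CPP-C pair.

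**Figure D3:**
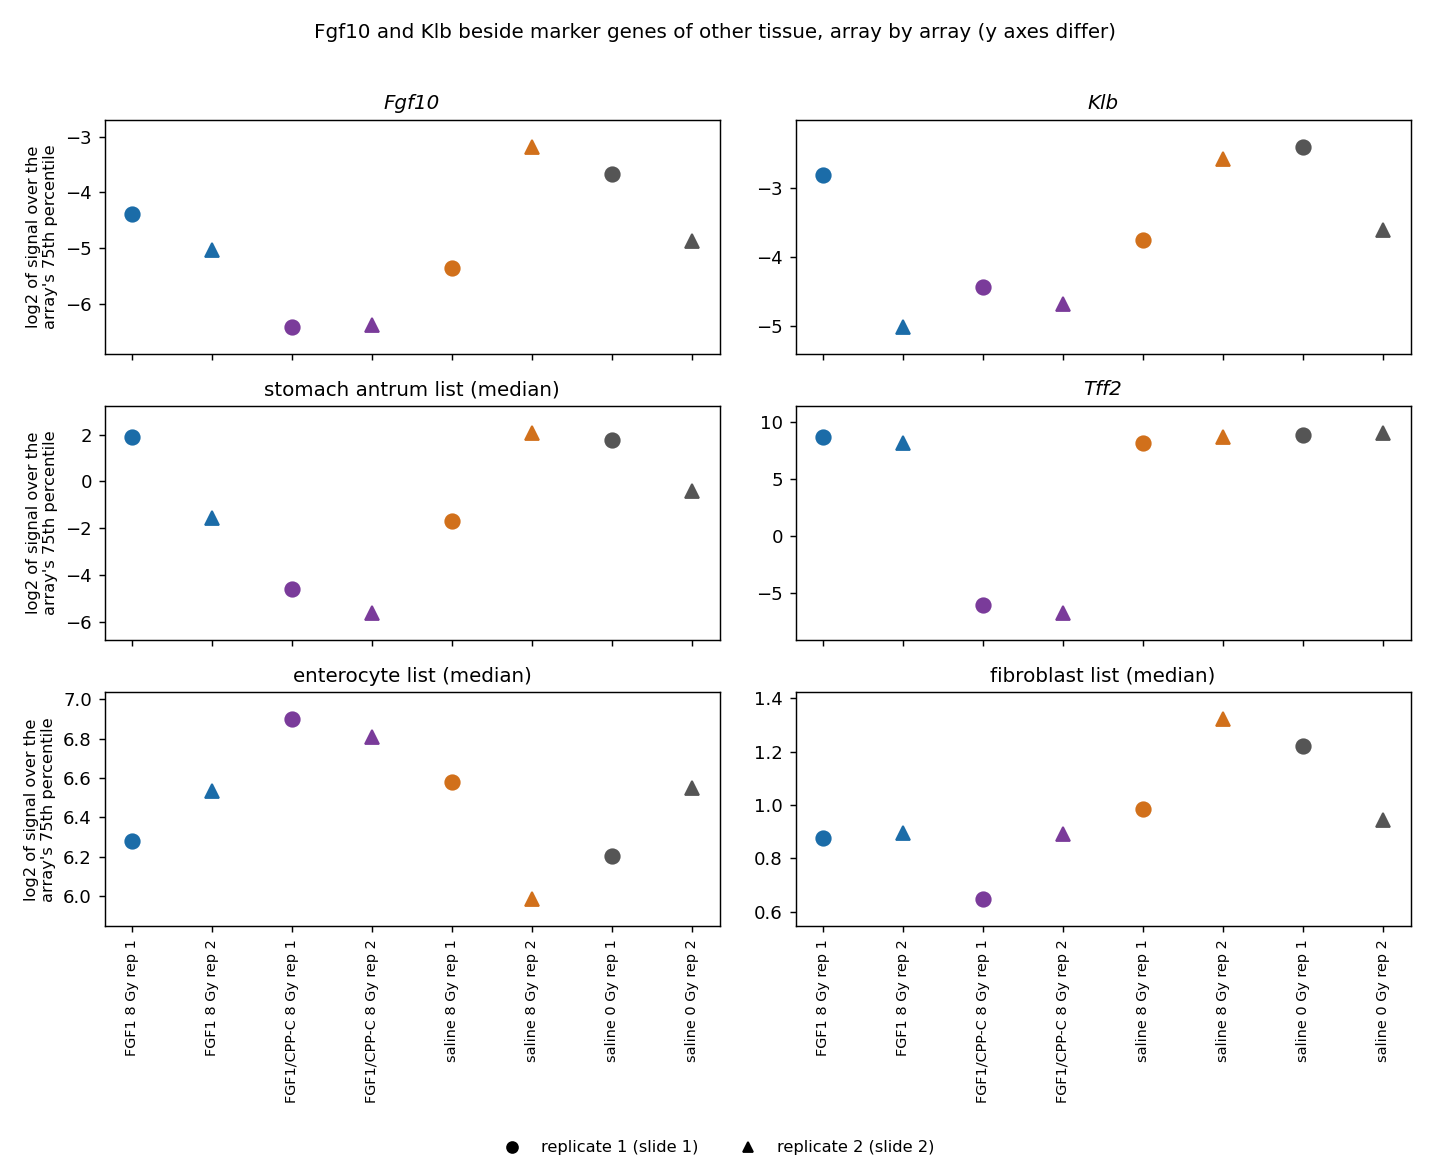
Log2 signals over the array's 75th percentile (y axes, which differ) are plotted for each of the 8 arrays, ordered FGF1, FGF1/CPP-C, 8 Gy saline and 0 Gy saline, for Fgf10, Klb, the median of the antrum list, Tff2, the median of the enterocyte list and the median of the fibroblast list. Fgf10, Klb and the antrum median are high in FGF1 replicate 1, 8 Gy saline replicate 2 and 0 Gy saline replicate 1, and Tff2 is low in both FGF1/CPP-C arrays alone.

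The 5 genes with several kept probes allow a check of the gene values. The Fgf1 probes moved together, as given above. The overlapping Fgfr2 probes gave the same sign in all 6 comparisons, with the second probe at -0.22 ± 0.12 in FGF1, -0.32 ± 0.12 in FGF1/CPP-C and -0.14 ± 0.12 in 8 Gy saline against 0 Gy saline. The 3 Fgfr1 probes did not order the arrays alike. The probe at chr8:26685820-26685879 had -2.34 and -2.63 in the FGF1 arrays, -2.14 and -2.61 in the FGF1/CPP-C arrays, -2.20 and -2.62 in the 8 Gy saline arrays and -2.21 and -2.54 in the 0 Gy saline arrays. It was lower on slide 2 in every group, and the fold changes of this probe lay between -0.11 and 0.11 in the 6 comparisons. For Fgfr1 in FGF1/CPP-C against 0 Gy saline, the brightest probe gave -0.28 ± 0.15 and the other 2 probes gave 0.00 ± 0.23 and 0.00 ± 0.17. The second probe labelled Fgfr3 had its highest value, -3.23, in 0 Gy saline replicate 1, against -4.22 to -3.62 on the other arrays, and its standard error of 0.30 was above the 0.15 of the probe used for Fgfr3. The second Fgfr4 probe spanned -3.82 to -3.47 over the 8 arrays. Tested by itself, none of the 16 kept probes passed in any of the 6 comparisons.

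**Figure D4:**
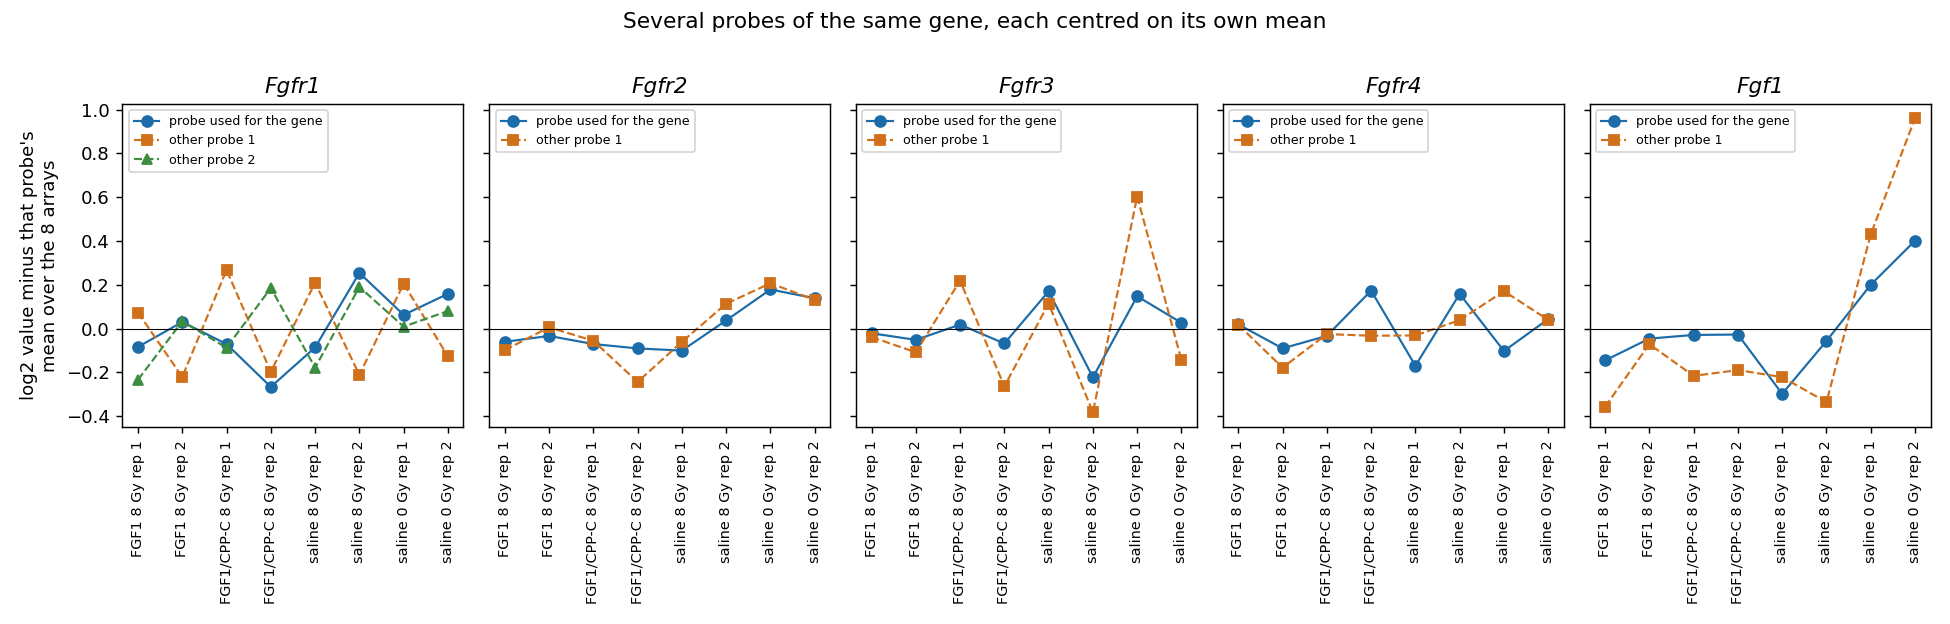
For the 5 genes with several kept probes, each probe's log2 value minus its own mean over the 8 arrays (y axis) is plotted by array (x axis), with a solid line for the probe used as the gene value and dashed lines for the others. Both Fgf1 probes are highest in the 2 arrays of 0 Gy saline and the Fgfr2 probes run together, while the Fgfr1 probes order the arrays differently.

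The rest of the pathway was read from 5 lists drawn up with earlier results of these data known. In FGF1 against 8 Gy saline 0 genes passed in each list. The 2 genes of smallest p among 11 measured of 17 other FGF ligands were Fgf4, which was not well above background in either 8 Gy saline array and had a mean at least 1.39-fold higher in FGF1, and Fgf12 (-0.24 ± 0.13), which was well above background on 1 array of each group. Among 12 measured of 15 other coreceptors and binding proteins they were Fgfbp1, a secreted carrier that releases FGFs from the matrix (-0.42 ± 0.14, unadjusted p = 0.0255), and Cdh2, N-cadherin (-0.19 ± 0.13). Among 26 measured of 35 genes for heparan sulfate and its core proteins they were the glypican Gpc4 (0.27 ± 0.14) and the chain-building enzyme Ext1 (0.34 ± 0.18). Of 36 measured of 37 genes that relay the receptor signal, the kinase gene Akt2 had 0.19 ± 0.10. Among 18 measured of 21 FGF and ERK feedback genes the 2 of smallest p were the phosphatase Dusp4 (-0.26 ± 0.11) and the inhibitor Spry3. Spry3 had -6.23 and -5.74 in the FGF1 arrays, against -5.98 and -6.74 in the 8 Gy saline arrays, was well above background on 1 array of each group and lay at the floor in 8 Gy saline replicate 2, so no fold is given. Every adjusted p was 1. The list medians were 0.00 for other ligands, -0.07 for coreceptors and binding proteins, 0.02 for heparan sulfate, 0.07 for the relay and -0.08 for feedback, against 0.01 over all genes.

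In FGF1/CPP-C against 8 Gy saline and against FGF1, 0 genes passed in each of the 5 lists. Against 0 Gy saline, 4 genes of the lists passed in at least 1 comparison. Etv4, an ETS transcription factor induced by FGF signalling in many tissues, had 0.00 and 0.15 in the FGF1 arrays, 0.20 and 0.24 in the FGF1/CPP-C arrays and 0.04 and 0.24 in the 8 Gy saline arrays, against -0.82 and -0.85 in the 0 Gy saline arrays. It was higher in FGF1 (0.91 ± 0.11, adjusted p = 0.0329), in FGF1/CPP-C (1.06 ± 0.11, adjusted p = 0.0214) and in 8 Gy saline (0.98 ± 0.11, adjusted p = 0.0372). With the slide as a block the adjusted p was 0.0581, 0.0400 and 0.0552 in the same order. FGF1 and 8 Gy saline did not differ at Etv4 beyond the spread between arrays (-0.07 ± 0.11, adjusted p = 1).

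The other 3 passed in FGF1/CPP-C against 0 Gy saline. Gpc6, a glypican, had -5.76 and -5.60 in the FGF1/CPP-C arrays, against -4.70 and -4.60 in the 0 Gy saline arrays (-1.03 ± 0.12, adjusted p = 0.0241, with the slide as a block 0.0400). Its signals were dim, and after normexp the fold change was -0.37 (adjusted p = 0.143). Extl1, an enzyme of the heparan sulfate chain, was higher, with -2.51 and -2.53 in the FGF1/CPP-C arrays against -4.21 and -3.87 in the 0 Gy saline arrays (1.52 ± 0.20, adjusted p = 0.0300, with the block 0.0572). Fgf12, a member of the family that stays inside the cell, was not well above background in either FGF1/CPP-C array. Its mean was at least 1.91-fold lower there than in 0 Gy saline (adjusted p = 0.0342, with the block 0.0615). That bound holds for the processed signal only: after normexp the Fgf12 fold change was -0.22 (adjusted p = 0.189), and Fgf12 passed under 4 of 18 alternatives. None of these calls of Etv4, Gpc6, Extl1 and Fgf12 held without the 3 arrays of high antrum median. That fit has 5 arrays, with 1 array each in FGF1 and in both saline groups, so it decides nothing about these calls. The fold changes behind the calls kept their sign under every alternative, several of which cannot alter a fold change. Those of Etv4 ran from 0.84 to 1.23 over the 3 comparisons. Leaving out any single array of the FGF1, FGF1/CPP-C or 0 Gy saline groups also ended each of these calls, with adjusted p from 0.0593 to 0.237, and the Etv4 call in 8 Gy saline was also lost without either 8 Gy saline array (adjusted p = 0.0715 without replicate 1 and 0.139 without replicate 2). The gene lists counted 1 higher and 0 lower of 18 feedback genes in each of the 3 irradiated groups, 1 higher and 1 lower of 26 heparan sulfate genes in FGF1/CPP-C and 0 higher and 1 lower of 11 other ligands in FGF1/CPP-C, and 0 passed in the remaining lists. Over all genes 0.9% passed in FGF1, 2% in FGF1/CPP-C and 0.423% in 8 Gy saline.

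Among 14378 named genes well above background on all 8 arrays, those whose values followed each of the 9 genes most closely over the 8 arrays were taken as a description, in which all points share the same 8 libraries. Fgf1 was followed most closely by Frem1, Cdh11 and Slc16a13 (Pearson r = 0.972, 0.971 and 0.967), of which Cdh11 is a mesenchymal cadherin. Fgf2 was followed by Zfhx2, Cep89 and Pmvk (r = 0.998, 0.991 and 0.989), Fgf7 by Cpe, Mab21l2 and Neurl1a (0.928, 0.913 and 0.908), and Fgf9 by Efnb2, Arpc2 and Pxdc1 (0.988, 0.987 and 0.986). For the receptors the closest were P2rx6, Adcy5 and Itga1 for Fgfr1 (0.959, 0.957 and 0.953), Nudt9, Islr and Olfml1 for Fgfr2 (0.987, 0.987 and 0.982), Cggbp1, Jchain and Sstr5 for Fgfr3 (0.969, 0.958 and 0.955) and Il6ra, Prmt3 and Eef1a1 for Fgfr4 (0.956, 0.932 and 0.922). Klb was followed by Mxd4, Klf12 and Khdc3 (0.985, 0.983 and 0.982). With 14378 genes and 8 arrays, values this high are found for every one of the 9 genes, and Fgf10, not measured on all 8 arrays, was left out.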

How the data were processed

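The 8 arrays were scanned and read with Agilent Feature Extraction 9.5.3.1, per the file headers and the submitters' processing notes. The deposited processed signal is an intensity on a linear scale, background-subtracted and detrended within the array but not scaled between arrays, per the file headers, and the series matrix holds the same values for most spots well above background. RNA was extracted with Trizol and RNeasy and labelled from a low-input amplification kit, per the labels' protocols. Coordinates are those of the array files (mm9).

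From the deposited intensity each array's 75th percentile was divided out and log2 taken above a common floor of -6.74 on the log2 scale. Control spots (1377) and spots marked as outliers were left out, and spots of a probe averaged. A probe was kept if at least 50% of its spots were well above background (over 2.6 background SDs) on both arrays of at least 1 group. Genes were named by accession through RefSeq (GRCm38.p6, 28330 of 39429 probes), else by symbol (2204) or the file's name (8895), and each of 21847 genes took its brightest kept probe. Groups were compared with limma 3.58.1 (R 4.3.3) on the 4 group means, with 4 residual degrees of freedom left and Benjamini-Hochberg adjustment over all genes. The fit was checked on simulated data. Figures used matplotlib 3.10.9 (Python 3.11.15). Slide 1 carried all replicates numbered 1 and slide 2 those numbered 2, so the slide, as a block, was an alternative. Deviations of same-numbered arrays correlated with r from -0.52 to 0.54, so the number pairs arrays by slide only. Named genes were all 10 genes, the genes of each list that passed (else the 2 of smallest p in FGF1 against 8 Gy saline) and the 3 genes most like each member. One gene that this rule names is not reported here. Members, lists and rules were chosen with earlier results of these data known. Only 2 arrays per group limit the precision.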

Additional observations from a re-analysis of the deposited data

How the results depend on the processing

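None of the 10 genes passed in any of the 6 comparisons under any of the 19 alternatives. Of 1134 recomputed fold changes, 1061 moved by less than 1 standard error and 73 by more. Many of them could not move, so these counts overstate the stability. The 2-group fit, the block, the trend and robust moderation and the test per probe alter only standard errors and p-values. Leaving out an array alters only the fold changes that involve its group. The sign changed for 65 values, in 28 of 60 results, while passing nowhere. These were most often of Fgf7 and Fgfr4 (14 each) and Fgfr3 (12), whose fold changes lay near 0. Without the 3 arrays of high antrum median, chosen after the values were seen, Fgf10 was 0.31 in FGF1 against 8 Gy saline and Klb 0.46 in FGF1/CPP-C against FGF1, both of the opposite sign.

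Counts over all genes moved more, and are given in the order FGF1 against 8 Gy saline, FGF1/CPP-C against 8 Gy saline, FGF1/CPP-C against FGF1, and then FGF1, FGF1/CPP-C and 8 Gy saline against 0 Gy saline. They were 0, 2, 2, 196, 436 and 92 as reported, 0, 5, 12, 219, 514 and 112 after quantile normalisation, 0, 4, 7, 396, 684 and 149 after normexp, 0, 0, 0, 146, 300 and 66 from the series matrix, 0, 5, 2, 136, 258 and 42 with no filter, and 0, 1, 1, 197, 477 and 104 with probes measured on all 8 arrays. They were 2, 7, 11, 196, 440 and 97 with the probes of a gene averaged, 0, 6, 10, 231, 499 and 103 per probe, 0, 2, 1, 5, 10 and 0 with 2 groups in the fit, and 0, 2, 7, 377, 712 and 143 with trend and robust moderation. Leaving out 1 array gave 0 to 0, 2 to 7, 2 to 5, 0 to 171, 1 to 846 and 0 to 41. The 846 came without either 8 Gy saline array and the 1 without 0 Gy saline replicate 2, and either 0 Gy saline array left out gave 0 in FGF1 and in 8 Gy saline against 0 Gy saline, as did either FGF1 array in FGF1 against 0 Gy saline. Leaving out the 3 arrays gave 0 in all 6. With the replicate number, here the slide, as a block, the counts were 0, 2, 2, 76, 174 and 37 and 0 of the 10 genes passed. The causes were not tested. Fgf10 had a series matrix value on only 1 of the FGF1/CPP-C arrays, so that fit used 1 array there. With 2 arrays a group, differences inside the intervals given are not excluded, and larger ones could also fail the threshold. Fgf2 and Fgf10 lay near background.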
